A study of Mus musculus with 5 samples.

Results

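The glycolytic enzyme isoforms described here are 10 mouse genes of 5 steps of the pathway: Eno3 and Eno1 (enolase), Pgam2 and Pgam1 (phosphoglycerate mutase), Pfkm, Pfkl and Pfkp (phosphofructokinase), Ldha and Ldhb (lactate dehydrogenase) and Aldoa (aldolase). They were taken by symbol from the deposited gene table, where they fill 11 of 55357 rows and 10 of 54456 symbols, since Aldoa has 2 gene IDs that were summed. The series profiled tibialis anterior, a fast muscle of the lower leg, in mice (female, C57BL/6, aged 26 months) with 10x Chromium 3′ libraries, in which each unique molecular identifier (UMI) stands for one captured RNA molecule. There were 2 libraries of frail mice, whose score on a multi-item frailty index was 0.18 or above, and 3 libraries of control mice of the same age, sex and strain, whose score was below 0.18. No transgene, deletion or drug was named for either group, so the labels set the groups apart by the index alone, and the series text counts 2 frail and 3 control mice. The series text describes digestion into whole cells, whereas the sample protocol describes lysis and sorted nuclei, so the units counted are called barcodes here.

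Glycolysis splits glucose into pyruvate, and several of its enzymes are encoded by a gene used in most tissues and by a second gene used mainly in skeletal muscle. Enolase turns 2-phosphoglycerate into phosphoenolpyruvate as a dimer of alpha subunits (Eno1) or, in muscle, of beta subunits (Eno3). Phosphoglycerate mutase, which forms 2-phosphoglycerate, has a brain type (Pgam1) and a muscle type (Pgam2). Phosphofructokinase is the committed, regulated step and is built from muscle (Pfkm), liver (Pfkl) and platelet (Pfkp) subunits. Lactate dehydrogenase is a tetramer of A subunits (Ldha), common in fast muscle, and B subunits (Ldhb), common in heart and oxidative fibres, and Aldoa encodes the main aldolase of muscle and of most other tissues.

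Sums were taken over the barcodes in which 200 genes or more were detected and no more than 10% of UMIs were mitochondrial. That left 9351 and 10517 barcodes in the frail libraries and 8650, 9854 and 12088 in the control libraries, with median depths of 5353 to 7005 UMIs a barcode. A barcode was called a myofibre barcode when Ckm (muscle creatine kinase) and Acta1 (skeletal actin) together made up at least 5% of its UMIs. The other lineages were gated by at least 1 UMI of Cdh5 (endothelial), Pdgfra (fibro-adipogenic), Rgs5 (mural), C1qa (macrophage) or Pax7 (satellite cell) and none of the other 4 gate genes, which left out 21027 of 50460 barcodes with several gate genes. The myofibre gate held 9 and 74 barcodes of the frail libraries, 0.0962% and 0.704%, against 321, 782 and 250 barcodes of the control libraries, 3.71%, 7.94% and 2.07%. The frail and control shares did not overlap, yet their means of 0.3999% and 4.57% gave an exact two-sided permutation p of 0.2, where 0.1 is the smallest p that 2 against 3 libraries allow, and the difference of −4.17 points was −2.49 without control 2. Myofibre barcodes were shallow, with medians of 1210 to 2719 UMIs against at least 3345 in every lineage gate, and the 9 of frail 1 held 13127 UMIs in all and a median of 8.10% mitochondrial UMIs. Malat1 had library medians of 0.0212 to 0.123% of UMIs in myofibre barcodes. In the lineage gates these medians were 1.59 to 6.27%. The kind of RNA captured thus differed along with the gate, and its part in the myofibre differences was not tested. Summed myofibre markers (Myh4, Tnnt3, Pvalb and others) stood at 94309 to 124630 CPM (UMIs per 1000000 UMIs of the summed set) in the myofibre gate and at 30.3 to 3206 CPM in the other gates, so the label matched its markers. Satellite cell markers summed to 1939 to 2478 CPM in the Pax7 gate and to 3120 to 4342 CPM in the myofibre gate, where Calcr was at 0 in all 5 libraries and Myf5 in 3; that list includes Des, which fibres also express. The Rgs5 gate also held 2783 to 15889 CPM of red cell genes and 376 to 1038 CPM of Schwann cell genes. The C1qa gate held 4208 to 8925 CPM of macrophage markers beside 3980 to 6784 CPM of fibro-adipogenic and 2497 to 5632 CPM of mural markers. Its fibro-adipogenic sum exceeded its macrophage sum in control 2 (6784 against 6547 CPM) and control 3 (6684 against 4208 CPM). Red cell genes reached 12098 CPM in that gate and 6605 CPM in the Cdh5 gate. The part of these markers in the gate levels was not tested. Near the cut, 125 barcodes had a share up to 1 point below it and 161 a share up to 1 point above it. Nothing in the labels ties the libraries to separate batches, and p-values measure only the spread between libraries.

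The genes of each enzyme lie on different chromosomes. In GRCm38 (GENCODE vM21), Eno3 lies at chr11:70657202-70662513 on the + strand and Eno1 at chr4:150236721-150248879 on the + strand. Pgam2 lies at chr11:5801640-5803733 on the − strand and Pgam1 at chr19:41911923-41918660 on the + strand. Pfkm is at chr15:98092589-98132451 (+), Pfkl at chr10:77986947-78010083 (−) and Pfkp at chr13:6579768-6648777 (−). Ldha is at chr7:46841475-46855627 (+), Ldhb at chr6:142490249-142507957 (−) and Aldoa at chr7:126795234-126800751 (−). All are protein-coding genes.

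RefSeq promoter windows (GRCm38.p6) were matched for all 10 genes. Below are the 150 bases before the RefSeq start of both muscle-restricted genes of lower glycolysis, of one of their ubiquitous partners and of Ldha, shown because the isoform ratios below turn on them. Capitals mark 3 motifs searched on both strands: CAGCTG (an E-box read by myogenic factors), the MEF2 site (read by muscle MEF2 factors), and ACGTG (the core read by hypoxia-inducible factors), which sits inside CACGTG and reads CACGT on the other strand.
Pgam2 (chr11:5803797-5803946, − strand): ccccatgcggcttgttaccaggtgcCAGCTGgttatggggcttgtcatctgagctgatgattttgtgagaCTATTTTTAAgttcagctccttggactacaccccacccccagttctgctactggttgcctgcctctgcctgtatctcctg
Eno3 (chr11:70657026-70657175, + strand): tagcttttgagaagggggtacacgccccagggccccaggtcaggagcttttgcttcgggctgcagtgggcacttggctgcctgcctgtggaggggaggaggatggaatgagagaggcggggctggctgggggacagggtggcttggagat
Pgam1 (chr19:41911721-41911870, + strand): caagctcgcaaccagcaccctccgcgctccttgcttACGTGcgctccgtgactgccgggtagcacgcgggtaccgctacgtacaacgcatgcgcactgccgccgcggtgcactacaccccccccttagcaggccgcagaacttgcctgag
Ldha (chr7:46845654-46845803, + strand): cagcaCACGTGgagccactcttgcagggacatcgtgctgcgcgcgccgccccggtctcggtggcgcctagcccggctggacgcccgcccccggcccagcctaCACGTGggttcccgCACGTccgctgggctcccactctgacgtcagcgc

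Pgam2 held CAGCTG 125 bases and a MEF2 match 80 bases before its start, in the 250 bases searched. Eno3 held none of the 3 motifs in its window. The Ldha window lies inside the GENCODE gene span, because the RefSeq start used is downstream of the GENCODE one. Pgam1 held ACGTG 114 bases before its start, and Ldha held 2 copies of CACGTG and 1 further CACGT. Of 32851 RefSeq windows of the same length, 13% held CAGCTG, 2.92% the MEF2 site and 16.6% ACGTG, so these matches describe the windows and show no binding.

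Myofibre barcodes carried high levels of Eno3, Pgam2, Pfkm, Aldoa and Ldha. Of the ubiquitous partners, Pfkp and Pgam1 were lower there than in every lineage gate, and Pfkl and Eno1 only than in some. Eno3 stood at 5790 and 10433 CPM in the myofibre barcodes of the frail libraries and at 6973, 4984 and 9887 CPM in those of the control libraries. In the Cdh5 gate Eno3 stood at 8.08 and 26.0 CPM in frail libraries and at 30.9, 84.4 and 60.2 CPM in control libraries. The myofibre and endothelial values were far apart in every library. Eno3 was thus higher in myofibre barcodes than in the Cdh5 gate by 8.57 on the log2 scale (SE 0.43, edgeR adjusted p = 2.5e-18), and its difference from the other 4 gates was 7.86 (Rgs5) to 9.68 (Pax7). Pgam2 gave the same pattern, at 2209 and 3977 CPM in frail myofibre barcodes and at 3830, 3578 and 4763 CPM in control myofibre barcodes. In the Cdh5 gate Pgam2 had 3.65 and 9.91 CPM in frail, against 19.7, 57.5 and 30.5 CPM in control libraries. The log2 difference from Cdh5 was 8.49 (SE 0.39, edgeR adjusted p = 2.33e-19) and ran between 7.61 (Rgs5) and 10.00 (Pax7) over the other gates.

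Pfkm, the muscle subunit of phosphofructokinase, stood at 686 and 819 CPM in frail, against 778, 589 and 716 CPM in control myofibre barcodes, the narrowest spread of the 6 myofibre-enriched members. It averaged 717 ± 88.5 CPM in myofibre barcodes and 12.5 ± 3.79 CPM in the Cdh5 gate (SD, n = 5 libraries each), a log2 difference of 6.71 (SE 0.26, edgeR adjusted p = 4.19e-21), with 5.87 to 6.82 against the other gates. Aldoa was the most abundant member in every set of barcodes. It stood at 20340 and 31311 CPM in frail, against 22958, 21639 and 20490 CPM in control myofibre barcodes, and averaged 377 (Pdgfra) to 836 CPM (Rgs5) in the lineage gates. Its log2 differences were 5.72 to 6.77 and passed the edgeR test in all 5 contrasts. Ldha, the subunit that favours lactate formation, averaged 3016 ± 759 CPM in myofibre barcodes, against 170 ± 25.6 (Pax7) to 298 ± 51.2 CPM (Rgs5) in the lineages (SD, n = 5 libraries each). Its log2 differences were 4.21 to 4.80, and it was called in all 5 contrasts. These are UMIs of 3′ libraries, 1 per captured molecule, and no length correction was made. Whether capture differed between genes, for example with their length, was not tested.

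Ldhb was the least muscle-restricted of the 6. It stood at 229 and 42.8 CPM in frail, against 51.2, 144 and 174 CPM in control myofibre barcodes, where the frail 1 value rests on 3 UMIs. It was higher in myofibre barcodes than in the Cdh5, Pdgfra, C1qa and Pax7 gates by 2.78, 2.80, 2.30 and 1.80 on the log2 scale and was called in those 4 contrasts, although with the myofibre gate at 10% none of the 4 passed the threshold and the Pax7 difference was −0.12. Against the Rgs5 gate its difference was 0.30 (SE 0.30, edgeR adjusted p = 0.385). The direction there turned under other scalings (−0.89 with total UMIs), without control 3 (−0.22) and at the 10% gate (−1.60).

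Of the ubiquitous partners, Pfkp and Pgam1 were called lower in myofibre barcodes than in every lineage gate, and Pfkl and Eno1 only than in some. In these contrasts 31.1 to 41.5% of all genes were called lower, and the median gene lay at −0.57 to −0.22 on the log2 scale. Pfkp had 0 UMIs in both frail myofibre sums and 4.02, 3.80 and 13.7 CPM in the control ones, against an average of 38.8 ± 9.08 (Pax7) to 79.5 ± 9.23 CPM (Pdgfra) in the lineages (SD, n = 5 libraries). A count of 0 allows up to 228.5 CPM in frail 1 and 18.3 CPM in frail 2, so the low level of the platelet subunit rests on the control libraries and frail 2. Its log2 differences were −2.63 (Pdgfra) to −1.75 (Pax7), all past the edgeR threshold. Pgam1 had 0 and 6.11 CPM in frail, against 19.0, 24.6 and 27.4 CPM in control myofibre barcodes. Its lineage averages were 78.9 (Pax7) to 151 CPM (Rgs5), with log2 differences of −1.44 to −0.75, all called, although the Pax7 call was lost with the myofibre gate at 2% (−0.38). Pfkl had 0 UMIs in both frail sums and 5.75, 3.80 and 3.16 CPM in the control sums. The liver subunit was lower in myofibre barcodes than in the Cdh5, Rgs5 and C1qa gates, with log2 differences of −2.37, −2.08 and −1.63 (all called), and did not pass against Pdgfra (0.27, SE 0.37, edgeR adjusted p = 0.537) or Pax7 (−0.43, SE 0.44, edgeR adjusted p = 0.429). The Pax7 difference was called with DESeq2 (−1.55), RLE factors (−1.58) and total UMIs (−1.58), as was the turned Pdgfra difference (−0.93, −0.94 and −0.997). Eno1, the ubiquitous enolase, had 0 and 67.2 CPM in frail, against 22.4, 26.6 and 58.0 CPM in control myofibre barcodes. It was lower than in the Rgs5 gate (log2 −0.79, SE 0.23, edgeR adjusted p = 0.00286) and the C1qa gate (−0.76, SE 0.23, edgeR adjusted p = 0.00404), and neither call held without control 1 (−0.57 in both). Against Cdh5, Pdgfra and Pax7 the Eno1 differences of −0.22, 0.44 and −0.33 did not pass, and these depended on the scaling. With DESeq2, RLE factors and total UMIs all 3 were called lower, at −1.24, −1.30 and −1.400 (Cdh5), −0.61, −0.67 and −0.74 (Pdgfra) and −1.31, −1.39 and −1.400 (Pax7). Calls were also gained against Cdh5 without control 3 (−0.56) and against Pax7 at the 10% gate (−0.77). Against Pdgfra, Eno1 was instead called higher without control 1 (0.64), with lineage gates at 2 UMIs (0.52) and over lineage barcodes with 0 Ckm and Acta1 UMIs (0.62).

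In all, 6 members were called higher and 3 lower against Cdh5, 6 and 2 against Pdgfra, 5 and 4 against Rgs5, 6 and 4 against C1qa, and 6 and 2 against Pax7. The background was high: of 14072 genes tested, 67.9%, 67.8%, 67.7%, 68.4% and 56.8% were called in these contrasts, in the same order. The genes called higher were 27.1%, 27.8%, 26.7%, 26.9% and 25.7%, and those called lower 40.8%, 40%, 41%, 41.5% and 31.1%. The median of all genes was itself shifted in these contrasts, by −0.57, −0.46, −0.57, −0.57 and −0.22 on the log2 scale with TMM scaling and by −1.80, −1.69, −1.91, −1.75 and −1.33 with total UMIs. Relative to that shift, Eno1 against Cdh5 lay above the median gene. Under total UMIs Eno1 and Pfkl against Pdgfra turned to −0.74 and −0.997 and Ldhb against Rgs5 to −0.89, while the directions of the other differences held under each scaling tried.

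**Figure D1:**
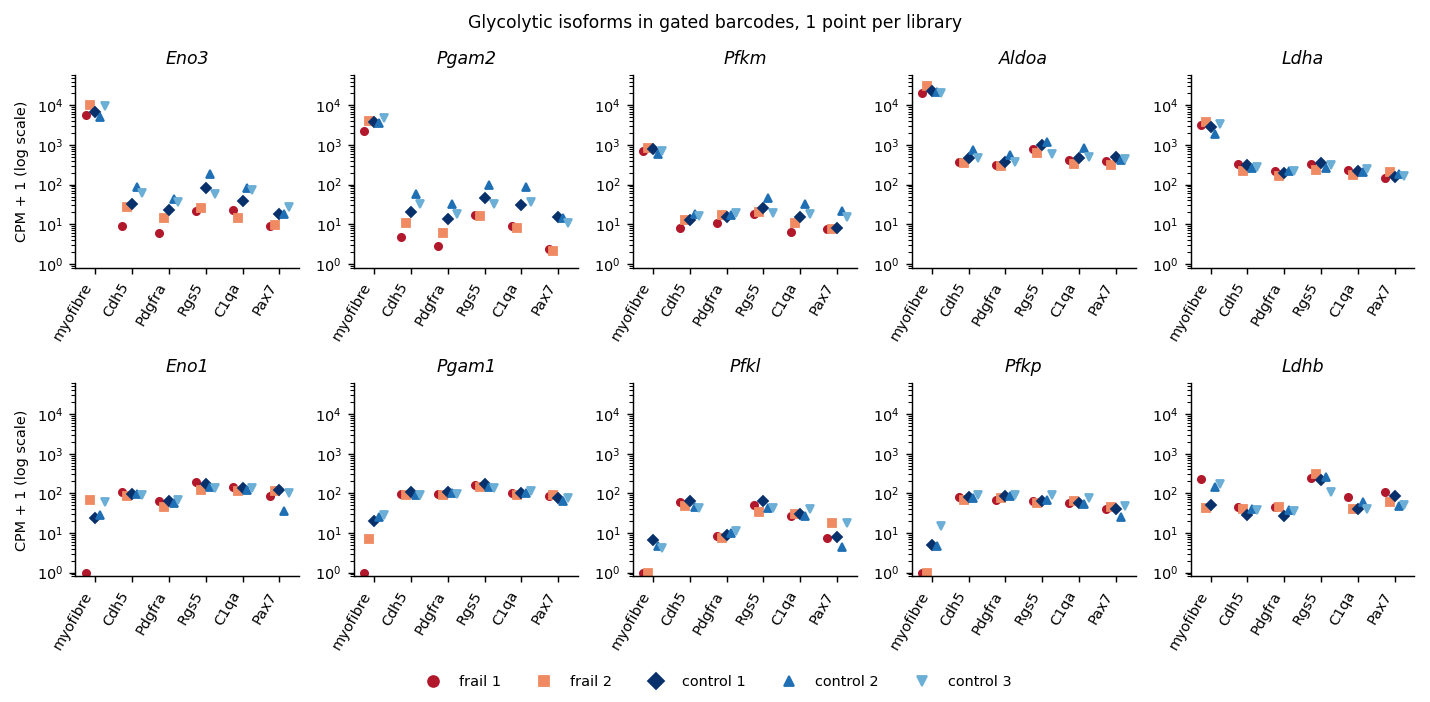
Level of each of the 10 isoform genes (CPM + 1, log axis, 1 panel per gene) in 6 gated sets of barcodes, 1 point per library, frail and control in different colours. Eno3, Pgam2, Pfkm, Aldoa and Ldha sit highest in the myofibre gate in every library, Pfkp sits lowest there, and the Ldhb points of the Rgs5 gate (105 to 313 CPM) overlap those of the myofibre gate (42.8 to 229 CPM).

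The isoform ratio within a library needs no scaling between libraries. Eno3 over Eno1 was 149 in frail 2 and 307, 186 and 169 in the control libraries in myofibre barcodes (0.5 added to each sum), and frail 1 had 76 Eno3 and 0 Eno1 UMIs. Pgam2 over Pgam1 was 434 in frail 2, from 651 and 1 UMIs (95% exact counting interval of their ratio 116 to 25752), and 199, 145 and 170 in the control libraries, and frail 1 had 29 and 0 UMIs. Pfkm over the sum of Pfkl and Pfkp was 77.3, 76.0 and 41.2 in the control libraries, while the frail libraries had 9 and 134 Pfkm UMIs and none of the other subunits. The muscle form thus made up nearly all UMIs of these 3 enzymes in myofibre barcodes. In the lineages the same ratios were far lower: the mean log2 difference, myofibre minus lineage, was 9.01 to 10.04 for enolase, 9.57 to 11.09 for the mutase and 8.20 to 9.44 for phosphofructokinase over the 5 gates. These means rest in part on the 0.5 added where the ubiquitous form had 0 UMIs. Over libraries with at least 1 such UMI they were 8.62 to 9.90 for enolase (n = 4), 9.58 to 11.03 for the mutase (n = 4) and 7.62 to 9.12 for phosphofructokinase (n = 3), positive in each library. Ldha over Ldhb was 12.1 and 85.1 in frail, against 53.8, 12.98 and 19.2 in control myofibre barcodes, where the frail 1 value rests on 42 and 3 UMIs (interval 4.47 to 70.6), and its mean log2 difference was 1.84 (Cdh5), 2.26 (Pdgfra), 4.27 (Rgs5), 2.62 (C1qa) and 3.41 (Pax7). Each of the 20 differences had the same sign in 5 of 5 libraries and an exact sign-flip p of 0.062, the smallest that 5 libraries allow, which adjustment over the 20 left unchanged.

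**Figure D2:**
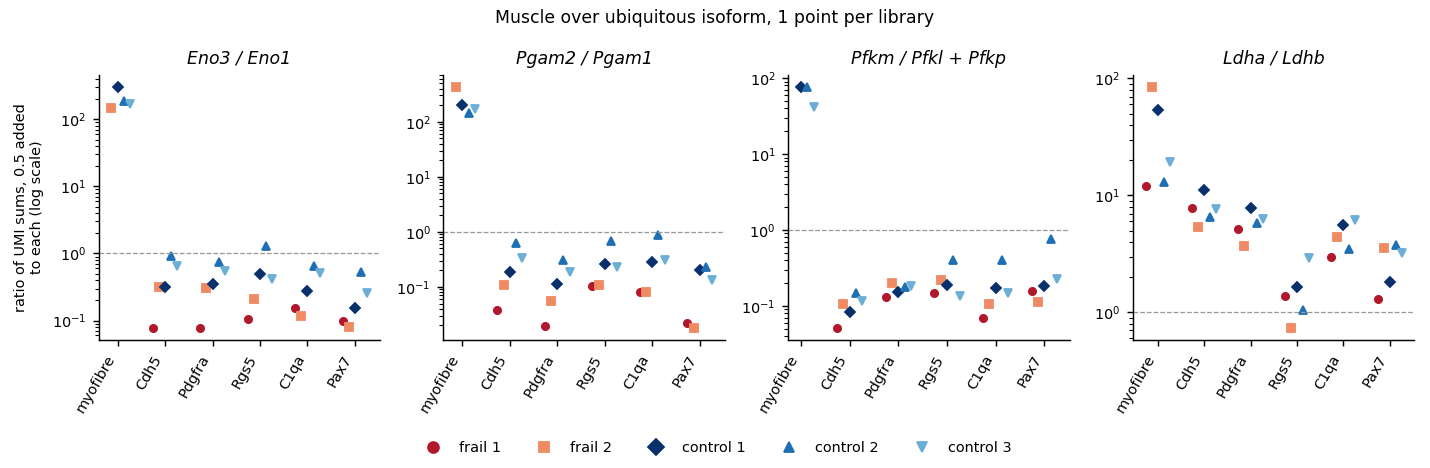
Ratio of muscle to ubiquitous isoform UMIs for enolase, the mutase and phosphofructokinase, and of Ldha to Ldhb UMIs. Axes are logarithmic with 0.5 added to each sum, in 6 gated sets of barcodes, 1 point per library. Sums with 0 UMIs of the ubiquitous form are not drawn (frail 1 for 3 ratios and frail 2 for phosphofructokinase). The drawn myofibre points lie above every lineage point for enolase, the mutase and phosphofructokinase.

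Between the lineages, Ldhb, Pfkl and Eno1 were described, chosen after their values were seen. Of the 10 pairs of lineage gates, 6 were called for Ldhb, 8 for Pfkl and 6 for Eno1. Beside these, 39.3% (Rgs5 and C1qa) to 56.6% (Cdh5 and Pdgfra) of all genes were called in the pairs whose shares follow. Pdgfra minus Pax7 had 2929 of 14072 genes called higher and 2235 lower, and C1qa minus Pax7 had 3735 and 2719. The counts of 6 thus lie near the background. Ldhb was high in the Rgs5 gate, at 243 and 313 CPM in frail, against 214, 253 and 105 CPM in control libraries, so that control 3 was the lowest. The endothelial gate averaged 37.4 ± 5.83 CPM and the Pdgfra gate 36.9 ± 7.29 CPM (SD, n = 5 libraries). The Rgs5 gate exceeded C1qa by 2.00 on the log2 scale (SE 0.29, edgeR adjusted p = 2.67e-06) and Pax7 by 1.504 (SE 0.32, edgeR adjusted p = 0.000467). The Cdh5 and Pdgfra gates lay below Rgs5, at −2.48 (SE 0.28, edgeR adjusted p = 4.18e-08) and −2.50 (SE 0.28, edgeR adjusted p = 3.12e-08). Accordingly Ldha over Ldhb in the Rgs5 gate was 1.39 and 0.734 in frail, against 1.65, 1.04 and 2.91 in control libraries, where myofibre barcodes had at least 12.1. Summed mural markers of that gate stood at 10943 to 14527 CPM in 4 libraries and at 4950 CPM in control 3, where the fibro-adipogenic sum was higher, at 9576 CPM, against 5456 to 8018 CPM in the other 4. Control 3 was also the library with 3620 CPM of epithelial markers there, against at most 0.292 CPM in the others. Without control 3 the 4 Ldhb differences were 2.12 (C1qa), 1.60 (Pax7), −2.68 (Cdh5) and −2.68 (Pdgfra) and were called. The red cell and Schwann cell genes were given above, and the part of all these markers in the Ldhb level was not tested. Of all genes, 49.7% were called between Cdh5 and Rgs5, 47.2% between Pdgfra and Rgs5, 39.3% between Rgs5 and C1qa and 40.6% between Rgs5 and Pax7.

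Pfkl, the liver subunit, was highest in the Cdh5 gate, at 51.6 ± 9.78 CPM, and lowest of the lineages in the Pdgfra gate, at 8.25 ± 1.43 CPM (SD, n = 5 libraries each). The Cdh5 level exceeded the Pdgfra level by 2.64 on the log2 scale (SE 0.18, edgeR adjusted p = 2.62e-15), the Pax7 level by 1.95 (SE 0.27, edgeR adjusted p = 2.35e-07) and the C1qa level by 0.74 (SE 0.18, edgeR adjusted p = 0.000699). The Rgs5 gate was close behind, at 45.6 ± 11.5 CPM, and its difference from Cdh5 did not pass (Cdh5 minus Rgs5 0.30, SE 0.17, edgeR adjusted p = 0.137). Background calls were 56.6%, 46% and 48.4% of genes in these contrasts. Pfkp was the commoner ubiquitous subunit in all 5 lineages, averaging 38.8 to 79.5 CPM. Eno1 averaged 59.5 ± 8.70 CPM in the Pdgfra gate, below Rgs5 (log2 −1.23, SE 0.18, edgeR adjusted p = 3.93e-07) and C1qa (−1.20, SE 0.18, edgeR adjusted p = 6.28e-07), and 51% of genes were called between Pdgfra and C1qa. The called lineage differences given here kept their direction and call, and the Pfkl difference between Cdh5 and Rgs5 stayed short of the threshold, under every alternative tried. Pgam1 averaged 95.1 ± 6.06, 98.2 ± 7.88 and 102 ± 9.31 CPM in the Cdh5, Pdgfra and C1qa gates (SD, n = 5 libraries), each within 1 SD of the C1qa mean. Against the Rgs5 gate most members differed in 3 pairs. Of 10 members, 8 were called higher in Rgs5 than in Pax7 and 3 higher than in C1qa, with 0 lower. Pdgfra had 8 called lower and 1 higher than Rgs5, and Cdh5 6 lower and 0 higher. The shares of all genes called in these pairs were 40.6%, 39.3%, 47.2% and 49.7%. These counts are of the main setting.

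Muscle isoforms were also counted outside the myofibre gate. Of all retained Eno3 UMIs, 10.6% and 61.3% lay in myofibre barcodes in the frail libraries and 82.5%, 79.5% and 67.1% in the control libraries. The share for Aldoa was 0.940% and 18.4% in frail, against 54.7%, 61.7% and 33.1% in control libraries, and for Eno1, Pgam1, Pfkl and Pfkp it was at most 1.69%. Over barcodes binned by their Ckm and Acta1 share, Eno3 was higher in each bin above the 0.1% bound. In control 3 it was 19.6 CPM in barcodes with no Ckm or Acta1 UMI, 22.7 CPM in those with up to 0.1%, 380 CPM between 0.1 and 1%, 3536 CPM between 1 and 5%, 9359 CPM between 5 and 10% and 12112 CPM from 10 to 20%. Pfkp in control 3 was 83.6 CPM in barcodes with no such UMI, 60.7 CPM between 1 and 5% and 15.7 CPM between 5 and 10%. Eno1 in the same 3 bins was 91.5, 76.7 and 23.8 CPM in control 1 and 72.9, 60.4 and 30.8 CPM in control 2. In control 3 it was 83.8, 68.3 and 56.1 CPM. Eno1 thus fell over these 3 bins in each control library, but not over all bins. With up to 0.1% it was 97.5, 82.01 and 94.98 CPM in control libraries 1, 2 and 3, above the bin with no such UMI. From 10 to 20% it was 17.1, 18.3 and 65.97 CPM, so it rose again in control 3 only. Frail 2 had 73.1, 92.99 and 56.7 CPM of Eno1 in the same 3 bins, highest between 1 and 5%. Ldhb in control libraries 1, 2 and 3 was 62.7, 188 and 214 CPM between 5 and 10% and 5.68, 55 and 5.5 CPM from 10 to 20%, lower in the upper bin in each.

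**Figure D3:**
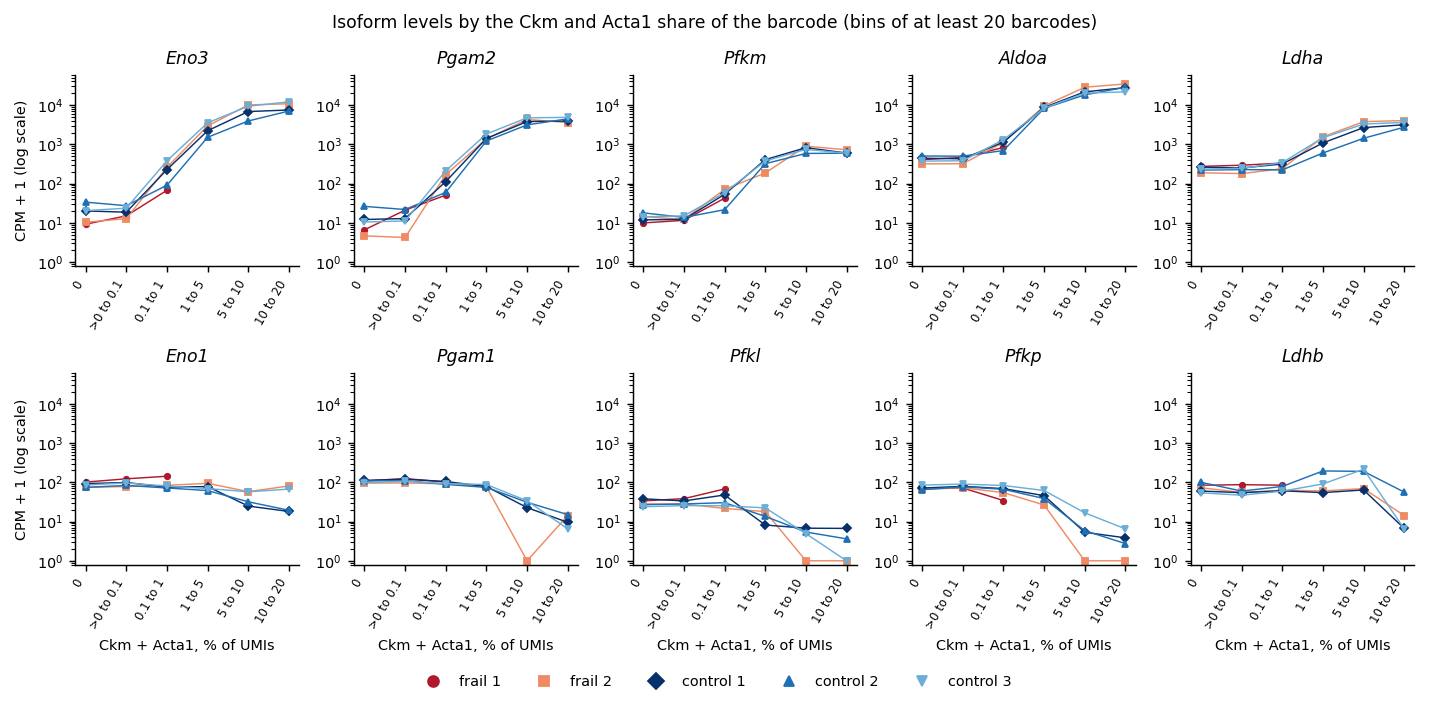
Isoform levels (CPM + 1, log axis) in barcodes grouped by the share of their UMIs that came from Ckm and Acta1, 1 line per library, for groups of at least 20 barcodes. Eno3 climbs above the 0.1% bound, from 19.6 CPM with no Ckm or Acta1 UMI in control 3 to 12112 CPM in its highest group.

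A Ckm or Acta1 UMI was found in 11.7% and 19.99% of all barcodes of the frail libraries, against 68.8%, 93.2% and 60.4% in the control libraries, and in 12.3 to 86.5% of endothelial-gated barcodes. Eno3 per 1000 UMIs of that pair was 84.8 and 107 in frail, against 83.6, 55.8 and 119 in control myofibre barcodes. Outside the gate it was 333 and 185 in frail, against 89.7, 51.6 and 140 in control libraries, so in the control libraries the proportion was similar inside and outside. Aldoa gave 298 and 321 in frail, against 275, 242 and 248 in control myofibre barcodes, and outside the gate at least 541 in every library. Fibre RNA carried in other droplets and expression in the other cells were not separated, and their parts in the lineage levels of Eno3 and Pgam2 were not tested.

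The question the groups address is how frail muscle differs from control muscle of the same age. Over all retained barcodes the muscle isoforms were lower in the frail libraries, and no member passed the edgeR test. Eno3 had 10.6 and 41.3 CPM in frail, against 222, 308 and 159 CPM in control libraries, with no overlap. The log2 difference was −3.21 (SE 0.65, edgeR adjusted p = 0.498), and it was −2.55 without frail 1 and −4.42 without frail 2. Pgam2 had 8.50 and 16.2 CPM in frail, against 125, 225 and 77.3 CPM in control libraries (log2 −3.58, SE 0.58, edgeR adjusted p = 0.444). For both muscle forms each frail value lay under the lowest control value. Pfkm had 9.43 and 15.4 CPM in frail, against 35.2, 48.7 and 24.6 CPM in control libraries (log2 −1.58, SE 0.36, edgeR adjusted p = 0.540). Aldoa followed with 420 and 412 CPM in frail, against 1101, 1725 and 666 CPM in control libraries (log2 −1.52, SE 0.43, edgeR adjusted p = 0.653). In such sums, fewer fibres among the barcodes and less RNA per fibre cannot be told apart, and the share of myofibre barcodes moved with the group, as given above.

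The lactate dehydrogenase pair and the ubiquitous forms differed less. Ldha had 277 and 198 CPM in frail, against 326, 315 and 284 CPM in control libraries (log2 −0.39, SE 0.23, edgeR adjusted p = 0.934). Ldhb had 83.4 and 67.4 CPM in frail, against 54.6, 68.6 and 49.9 CPM in control libraries, which overlapped (log2 0.37, SE 0.22, edgeR adjusted p = 0.934). The A and B subunits leaned in opposite directions, neither past the test. Eno1 had 103 and 73.9 CPM in frail, against 93.6, 77.6 and 90.6 CPM in control libraries, Pgam1 109 and 94.1 against 113, 102 and 101 CPM, and Pfkl 33.3 and 26.9 against 32.8, 25.7 and 23.6 CPM, all overlapping. Pfkp lay just lower, with 67.2 and 68.2 CPM in frail, against 73.6, 70.0 and 86.1 CPM in control libraries. Of the 10 members, 0 were called, and 0% of 19973 genes were, with 4 members and 1118 genes at an unadjusted p under 0.05 in edgeR, and 4 members and 288 genes called by DESeq2. Groups did not overlap for 6 members, each lower in frail, where 9.93% of all genes were lower without overlap.

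**Figure D4:**
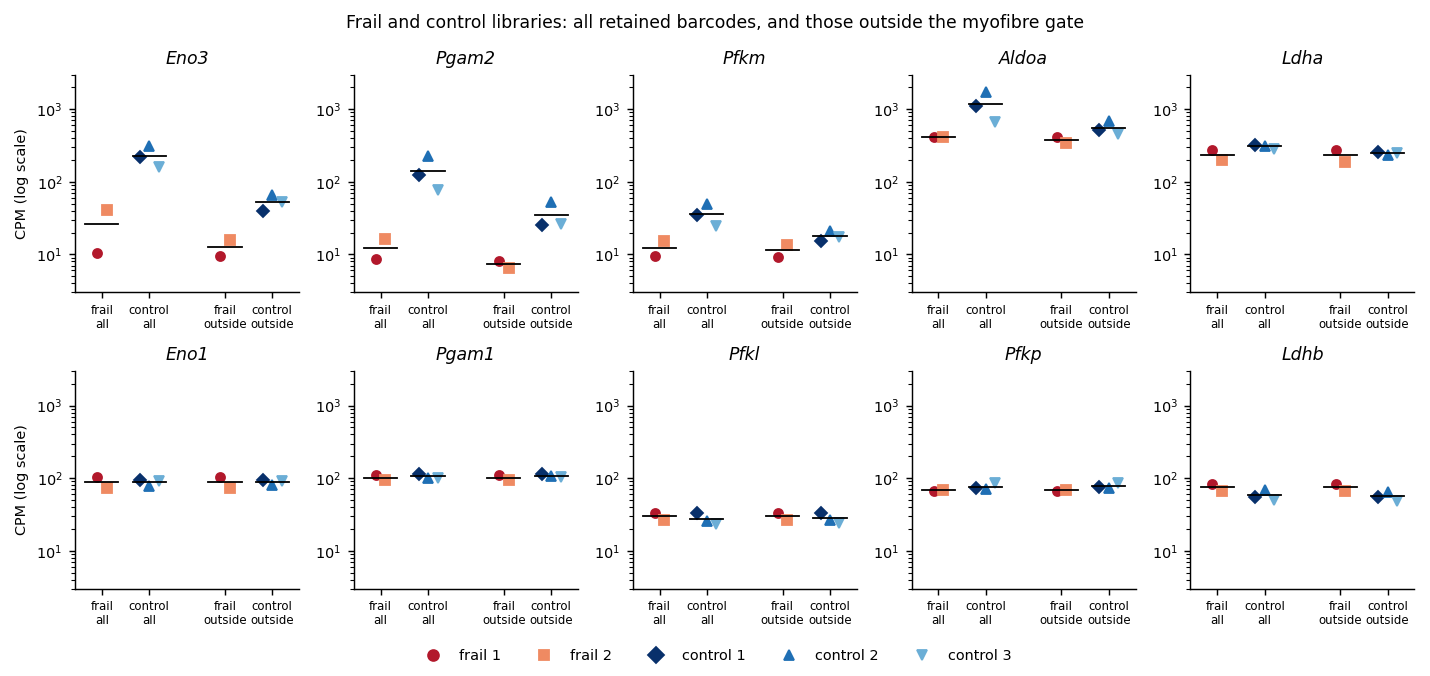
Level of each isoform gene (CPM) in the 2 frail and 3 control libraries, over all retained barcodes and outside the myofibre gate. Points are libraries and bars are group means. Frail points lie below all control points for Eno3 and Pgam2 in both panels, whereas Eno1 overlaps.

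Outside the myofibre gate the same muscle isoforms were nearer each other. Eno3 had 9.47 and 16.0 CPM in frail, against 39.9, 66.4 and 52.8 CPM in control libraries (log2 −2.08, SE 0.31, edgeR adjusted p = 0.604). Pgam2 had 8.08 and 6.59 CPM in frail, against 25.2, 52.0 and 26.3 CPM in control libraries (log2 −2.25, SE 0.40, edgeR adjusted p = 0.604). Both frail libraries again lay under every control library for this pair of genes. Aldoa had 416 and 337 CPM in frail, against 512, 695 and 451 CPM in control libraries (log2 −0.56, SE 0.26, edgeR adjusted p = 0.985). Ldhb, without overlap here, had 83.3 and 67.5 CPM in frail, against 54.7, 64.7 and 48.6 CPM in control libraries (log2 0.42, SE 0.20, edgeR adjusted p = 0.985). Again 0 of 10 members and 0% of 19958 genes were called by edgeR, with 3 members and 973 genes at an unadjusted p under 0.05. DESeq2 called 2 members and 177 genes. Groups did not overlap for 5 members lower and 1 higher in frail, where 18.6% of genes did not overlap in either direction. In barcodes with no Ckm or Acta1 UMI the gap narrowed further, to 8.27 and 9.40 CPM of Eno3 in frail, against 19.2, 32.8 and 19.6 CPM in control libraries, still without overlap. Pgam2 there had 5.67 and 3.68 CPM in frail, against 11.2, 25.3 and 9.54 CPM in control libraries, and Pfkm overlapped, with 8.98 and 13.4 against 10.96, 17.0 and 13.3 CPM.

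Within gated lineages the log2 difference of Eno3, frail minus control, was −1.79 (Cdh5), −1.89 (Pdgfra), −2.26 (Rgs5), −1.80 (C1qa) and −1.38 (Pax7), and that of Pgam2 was −2.40, −2.62, −1.85, −2.70 and −3.13. None of these passed the edgeR test, in which 0%, 0.0066%, 0%, 0% and 0.153% of genes were called in the 5 gates. By unadjusted p under 0.05, edgeR found 509, 684, 693, 347 and 420 genes. DESeq2 called 1 member in Cdh5 and 2 each in Pdgfra, Rgs5 and C1qa, where it called 29, 49, 95 and 23 genes in all. The Ckm or Acta1 UMIs in these gates moved with the group as well, in 10.4 to 14.3% of frail and 54.1 to 88.2% of control barcodes of the Rgs5 gate, and their part in the difference was not tested.

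Inside the myofibre gate the frail and control levels overlapped for Eno3, Pgam2, Aldoa and Ldhb, whose values were given above. Pgam1, Pfkl and Pfkp lay lower in frail without overlap, but on 0 UMIs in frail 1 and 0 or 1 UMI in frail 2. A count of 0 allows up to 228.5 CPM in frail 1 and 18.3 CPM in frail 2. Of 8 members tested there, 0 were called and 0 reached an unadjusted p under 0.05 in edgeR, while 0.144% of 5543 genes were called and 425 genes reached that p. The frail side rests on 83 barcodes, of which frail 1 gave 9, and the counts there limit what could be detected.

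The isoform ratios needed no scaling between groups. Over all barcodes Eno3 over Eno1 was 0.103 and 0.558 in frail, against 2.37, 3.97 and 1.75 in control libraries, a log2 difference of −3.41. Pgam2 over Pgam1 was 0.0778 and 0.172 in frail, against 1.10, 2.21 and 0.763 in control libraries, also −3.41. Both gave an exact permutation p of 0.1, the smallest possible, and 0.16 adjusted over the 8 ratios tested. Ldha over Ldhb was 3.32 and 2.93 in frail, against 5.97, 4.59 and 5.68 in control libraries (log2 −0.78, exact permutation p = 0.1). Pfkm over Pfkl plus Pfkp was 0.0939 and 0.162 in frail, against 0.331, 0.509 and 0.225 in control libraries (log2 −1.44, exact permutation p = 0.2). Outside the gate enolase gave 0.0918 and 0.216 in frail, against 0.418, 0.828 and 0.580 in control libraries, and the mutase 0.0739 and 0.0700 in frail, against 0.218, 0.490 and 0.258 in control libraries, with log2 differences of −2.06 and −2.07 (exact permutation p = 0.1 each). The other 2 ratios outside the gate were closer. Pfkm over Pfkl plus Pfkp overlapped there, at 0.0926 and 0.141 in frail, against 0.139, 0.207 and 0.155 in control libraries (log2 −0.52, exact permutation p = 0.3). Ldha over Ldhb was 3.32 and 2.80 in frail, against 4.75, 3.62 and 5.15 in control libraries (log2 −0.55, exact permutation p = 0.2). None of the 8 could pass 0.05 with 5 libraries. Without frail 1 the enolase difference over all barcodes was −2.19, and without frail 2 it was −4.63. Outside the gate those values were −1.44 and −2.67.

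Myofibre barcodes were also split by their dominant fast myosin heavy chain, Myh4 (fast glycolytic type IIB fibres) or Myh1 and Myh2 (types IIX and IIA). In the control libraries 224, 470 and 90 barcodes were Myh4-dominant and 52, 180 and 61 were Myh1- or Myh2-dominant. The frail libraries held 2 and 27 Myh4-dominant barcodes and 3 each of the other kind. Neither thus had the 10 barcodes of each kind that the test needed. Ldhb stood at 12.7, 11.9 and 8.83 CPM in Myh4-dominant barcodes, against 128, 397 and 162 CPM in Myh1- or Myh2-dominant ones. The difference was −4.32 on the log2 scale (SE 0.29, edgeR adjusted p = 5.43e-11), the groups were apart in all 3 libraries, and it stayed past the threshold under each alternative (−4.80 to −3.52, the last without control 2). Ldha went the other way, at 3111, 2171 and 3808 CPM in Myh4-dominant and 1919, 1219 and 2995 CPM in Myh1- or Myh2-dominant barcodes (log2 0.65, SE 0.15, edgeR adjusted p = 0.0112). That call was lost without control 1 (0.64, edgeR adjusted p = 0.0921) and without control 2 (0.57, edgeR adjusted p = 0.0992). Ldha over Ldhb was therefore 237, 179 and 383 in Myh4-dominant and 14.9, 3.07 and 18.4 in Myh1- or Myh2-dominant barcodes. Aldoa (0.45, SE 0.14, edgeR adjusted p = 0.0820), Eno3 (0.37, SE 0.15, edgeR adjusted p = 0.203) and Pgam2 (0.27, SE 0.15, edgeR adjusted p = 0.446) did not pass, although each was higher in Myh4-dominant barcodes in 3 of 3 libraries. Of 8 members tested 2 were called, where 3.55% of 4730 genes were called.

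**Figure D5:**
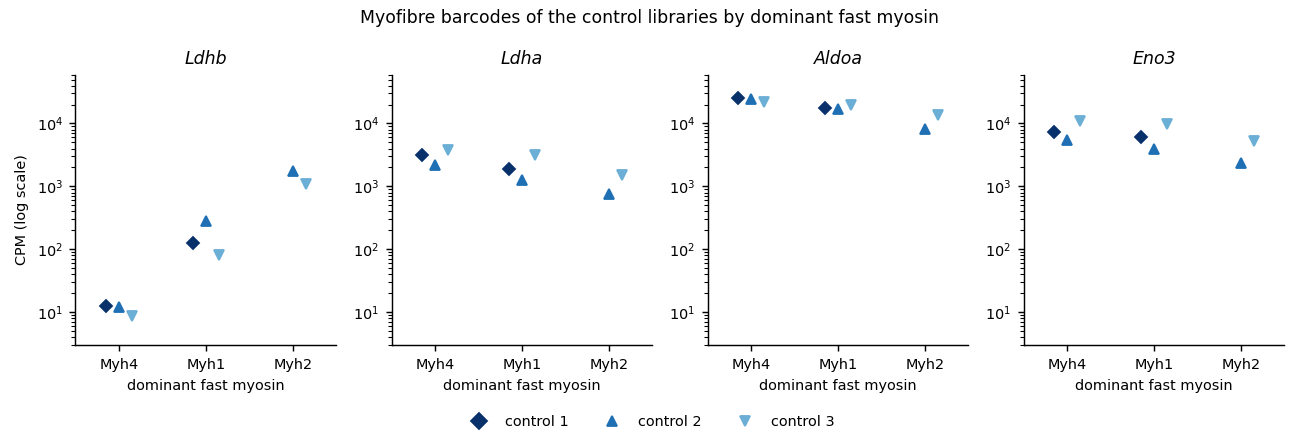
Ldhb, Ldha, Aldoa and Eno3 levels (CPM, log axis) in myofibre barcodes of the 3 control libraries, grouped by dominant fast myosin. Ldhb lies between 8.83 and 12.7 CPM in Myh4-dominant barcodes and is highest in the few Myh2-dominant ones, whereas the other 3 genes differ far less.

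A further split of the second set, made after its values were seen and given with no test, separated Myh1 from Myh2. Myh1-dominant barcodes (52, 173 and 53) had 128, 280 and 80.1 CPM of Ldhb. Myh2-dominant barcodes were 7 in control 2 and 8 in control 3, with 1785 and 1073 CPM of Ldhb from 150 and 30 UMIs. Ldhb was thus lowest with Myh4, intermediate with Myh1 and highest with Myh2 in both libraries that held all 3 kinds.

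Other genes of the pathway were read as lists. In myofibre barcodes the pyruvate entry list (pyruvate dehydrogenase subunits, its kinases and the mitochondrial carrier) had 11 of 13 genes called higher in each of the 5 contrasts and 1 or 2 lower, where 25.7 to 27.8% of all genes were called higher. The glycogen list had 14 of 19 called higher in each contrast and 3 to 5 lower, and the other glycolytic enzymes 7 of 11 tested higher and 1 to 3 lower. The phosphofructokinase regulators had 2 to 4 of 5 called higher and 0 lower, the glucose and lactate transporters 4 or 5 of 9 higher and 1 to 3 lower, and the hypoxia list 4 to 6 of 10 tested higher and 1 to 5 lower. The largest differences were Ppp1r3a, which targets a phosphatase to glycogen (log2 7.51 to 9.42 against the 4 gates other than Pax7, where it had 0 UMIs), Pygm, muscle glycogen phosphorylase (5.60 to 7.33), and Pfkfb1, a kinase that makes the activator of phosphofructokinase (5.38 to 6.56). These 3 genes passed the edgeR test in every contrast named. Under the alternatives tried, the Ppp1r3a differences from those 4 gates ran from 5.05 (C1qa) to 12.7 (Rgs5). Pdk3, a pyruvate dehydrogenase kinase, had 0 UMIs in every myofibre sum and 2886 outside. Eno2, the neuronal enolase, had 1 UMI in the myofibre gate and 1345 outside, and Hk3 and Slc16a7, a hexokinase and a monocarboxylate carrier, had 2 and 4 UMIs there.

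Between frail and control libraries, over all barcodes, 0 genes of any list were called by edgeR. Of the glycogen list 15 of 19 were lower in frail with a median of −0.36, and of the other glycolytic enzymes 10 of 13 with a median of −0.30, beside a median of 0.00167 over all genes. The smallest p-values belonged to Gys1, glycogen synthase (log2 −1.38, edgeR adjusted p = 0.448), Car9, a carbonic anhydrase of the hypoxia list (−2.13, edgeR adjusted p = 0.498), and Ppp1r3a (−3.92, edgeR adjusted p = 0.5004). Gys1 and Ppp1r3a were called by DESeq2 (−1.38 and −3.93) and in edgeR with a replicate block (−1.55 and −4.48). Inside the myofibre gate 2 list genes were called, Pfkfb3, another maker of the phosphofructokinase activator (2.42, SE 0.57, edgeR adjusted p = 0.0190), and Ppp1r3c, a further glycogen targeting subunit (−3.17, SE 0.69, edgeR adjusted p = 0.00453). They rest on 1 and 13 UMIs of Pfkfb3 and 0 and 4 of Ppp1r3c in frail, against 28, 57 and 6 and 368, 805 and 127 in control libraries. Both calls were lost without frail 1 (2.55 and −2.95), with DESeq2 (2.48 and −3.13), at the 10% gate (2.77 and −2.78) and with a replicate block (2.21 and −3.48). Without frail 2 they were lost too, at 1.40 for Pfkfb3, while Ppp1r3c then had no frail UMI. Pfkfb3 also lost its call without control 3 (2.23), with no low-count filter (2.25) and without the barcodes with the most UMIs (1.77). The median of all genes in that contrast was −0.23.

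Between fibre kinds the glycogen list had 4 genes called higher and 2 lower of 14 in Myh4-dominant barcodes, where 53 of 4730 genes were called higher and 115 lower. Among the largest differences over all lists were Stbd1, a glycogen-binding protein (1.25, edgeR adjusted p = 0.0318), and Slc16a3, the lactate exporter MCT4 (0.89, edgeR adjusted p = 0.0360). On the other side were Egln3, an oxygen sensor (−1.59, edgeR adjusted p = 0.0111), Gys1 (−0.86, edgeR adjusted p = 0.00897) and Pdk4, a pyruvate dehydrogenase kinase (−0.68, edgeR adjusted p = 0.0360). Each of these 5 calls was lost without control 2 (0.63 for Stbd1, 0.73 for Slc16a3, −0.72 for Egln3, −0.78 for Gys1 and −0.38 for Pdk4) and with no library block. Slc16a3, Egln3 and Pdk4 were also lost without control 3, Gys1 without control 1 (−0.67), and Slc16a3, Gys1 and Pdk4 with DESeq2. Further settings ended single calls: total UMIs for Stbd1, Slc16a3 and Pdk4, the gate at 2% for Slc16a3 and Egln3, at least 500 detected genes for Slc16a3 and Pdk4, and RLE factors and no low-count filter for Pdk4. Of the other glycolytic enzymes 0 of 7 were called in either direction.

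Genes with the most similar pattern were ranked by Pearson r of log2 CPM over the 30 sums (6 gates in 5 libraries), among 7490 genes, as a description in which sums of a library share their depth and the myofibre contrast dominates. Eno3 was closest to Car3, Tnni2 and Tcap (r = 0.980, 0.978 and 0.978), and Pgam2 to Tcap, Myoz1 and Tnni2 (0.990, 0.989 and 0.989), genes of the sarcomere apart from the carbonic anhydrase Car3. Aldoa was closest to Atp5g1, Gapdh and Idh3a (0.992, 0.990 and 0.990), Pfkm to Got2, Nipsnap2 and Art1 (0.972, 0.972 and 0.971) and Ldha to Idh3a, Cisd1 and Sar1b (0.982, 0.981 and 0.981). Among the ubiquitous forms the best were Slc25a5 for Eno1 (0.973), Cox6a1 for Pgam1 (0.985), Vasp for Pfkl (0.953) and Acap2 for Pfkp (0.989).

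Near-identical copies could take reads from the members, since multi-mapped reads are handled upstream of the counts. Eno1b, listed apart from Eno1, had 48 to 60 UMIs a library, Aldoart1 2 to 5, Pgam1-ps2 0 to 4 and Ldha-ps 0 or 1.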

How the data were processed

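Deposited files gave, for each of 5 libraries, barcodes, genes and a sparse matrix of UMI counts, which are raw counts per gene and barcode as the authors deposited them. Per the file headers the matrices came from Cell Ranger 7.0.0. Per the submitters' processing notes, bcl2fastq 5.01, Seurat 4.1.2 and GRCm38 were used. For the gene annotation and the barcode filter, the sources used here give no name. Rows with the same symbol were summed, and positions came from GENCODE vM21, which matched 52081 of 55357 IDs (94.1%).

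Of 56922 deposited barcodes 50460 were kept, and any 2 libraries shared 27 to 49 barcode sequences. No doublet caller was run. UMI counts were summed per library and gated set (sums of at least 5 barcodes) and given as CPM of the sum. Tests were edgeR 4.0.16 quasi-likelihood (TMM, filterByExpr, robust, Benjamini-Hochberg at 0.05 over all genes tested, R 4.3.3), over 5 libraries for frail and control, and with the library as a block between gated sets and fibre kinds. Ratios were tested by exact permutation (10 arrangements) or sign flips (32 arrangements) with scipy 1.17.1. A fibre kind needed more than 50% of at least 3 myosin UMIs and 10 barcodes a library.

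Library totals were 68170531 to 90942121 UMIs. Wilson 95% intervals of the myofibre share were 0.0506 to 0.183% in frail 1 and 7.42 to 8.49% in control 2, and these and the floor of 3 counts cover counting error only. The members, lists, gates and tests were chosen with earlier results of these data known. Named genes were all members, and of each list the 3 largest rises and falls among those called, or the 3 smallest p where none was. A few genes this rule would name are not reported here. The fits were tested on simulated data. Alternatives included DESeq2 1.42.0, other scalings, filters and gates, and leaving out each library.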

Additional observations from a re-analysis of the deposited data

How the results depend on the processing

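The myofibre isoform differences of Eno3, Pgam2, Pfkm, Aldoa, Ldha and Pfkp kept their direction and call in all 5 contrasts under every alternative, and the 4 isoform ratios kept their direction, also over libraries with at least 1 UMI of the ubiquitous form, an alternative chosen after seeing the data. The number of members called between frail and control, 0 by edgeR, was 4 over all barcodes, 2 outside the gate, 1 in Cdh5 and 2 each in Pdgfra, Rgs5 and C1qa by DESeq2. With a replicate block it was 4, 1, 1, 2 and 1 over all, outside, Cdh5, Pdgfra and Rgs5, where 366, 179, 16, 34 and 62 genes were called. The labels do not say whether the replicate numbers pair the samples. Correlations of −0.0128 and 0.166 over 2 pairs cannot decide it, because the deviations of the 2 frail libraries mirror each other. With the myofibre gate at 10% it was 1 in Cdh5, 2 in Rgs5 and 1 in Pax7, with no low-count filter 1 in Cdh5, 2 in Pdgfra and 1 in C1qa, and in Pdgfra barcodes with 0 Ckm and Acta1 UMIs, an alternative chosen after seeing the data, 1. All genes called there numbered 20 in Cdh5 and 20 in Rgs5 at the 10% gate. They were 173, 259 and 15 with no filter, and 10 in those Pdgfra barcodes. Between fibre kinds, 2 members were called, 4 without the barcodes with the most UMIs, 1 with the gate at 2%, 1 with no library block and 1 to 3 with 1 library left out.

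Directions turned as follows on the log2 scale, and the cause was not tested. Eno1 against Cdh5 was 0.0454 over lineage barcodes with 0 Ckm and Acta1 UMIs. Against Pdgfra, Eno1 was −0.0219 at the 10% gate, −0.61 by DESeq2, −0.67 with RLE factors and −0.74 with total UMIs, and Pfkl was −0.43, −0.93, −0.94 and −0.997. Ldhb against Rgs5 was −1.60, −0.74, −0.66 and −0.89 in the same settings and −0.22 without control 3 to 0.55 without frail 2, and against Pax7 −0.12 at the 10% gate. Pfkl against Pax7 was 0.18 with lineage gates at 2 UMIs and 0.23 with gates by the leading gate gene, an alternative chosen after seeing the data. Genes called over all barcodes, 0 by edgeR, numbered 288 by DESeq2, 14 with no filter and 366 with the block, and outside the gate 177, 8 and 179. In the gates they were up to 66 (myofibre), 173 (Cdh5), 259 (Pdgfra), 95 (Rgs5), 23 (C1qa) and 100 (Pax7), and between fibre kinds 16 to 341. Depth limits the frail myofibre sums, where 0 UMIs in frail 1 allows 228.5 CPM. The 10% gate holds no frail 1 barcode.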
